A study of Mus musculus with 6 samples.

Results

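Genes of the hyperosmotic stress response were followed in cells that the study isolated as peritoneal endothelial cells (ECs), from mice exposed to peritoneal dialysis (PD) fluid. The 10 genes, taken by symbol from the 22183 genes of the deposited table, were Nfat5, Slc5a3, Slc6a6, Slc6a12, Slc38a2, Akr1b3, Sgk1, Slc12a2, Lrrc8a and Wnk1, and each symbol matched a single row. The study compared 3 saline mice and 3 PD mice, all wild-type C57BL/6J males of 8 to 10 weeks at the start, by RNA sequencing with a separate library for each mouse. PD mice received an intraperitoneal injection of Dianeal PD fluid of 4.25% glucose each day for 6 weeks, and saline mice received saline on the same schedule, so repeated injection was shared by both groups. The cells were obtained from the mesentery with collagenase and sorted as CD31+ CD45- cells according to the study's methods. The sample labels instead name magnetic sorting of CD31+ cells.

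Cells that meet a hypertonic fluid lose water and shrink, and they first regain volume by taking up sodium, potassium and chloride. Over hours they replace these salts with compatible osmolytes such as myo-inositol, betaine, taurine, sorbitol and small neutral amino acids, which do not disturb proteins. The transcription factor NFAT5 (also named TonEBP) drives much of this second phase by binding tonicity-responsive enhancers (TonE) near the osmolyte genes. It is best known from the kidney medulla, and it also acts in macrophages and in ECs. Glucose-based PD fluid is hypertonic to plasma.

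The libraries were first checked for the labelled cell type. Total counts ran from 21973426 to 26374292 per mouse. The transcript of CD31 (Pecam1) was at 145 ± 4.44 FPKM (fragments scaled to transcript length and library size, SD, n = 3 mice) in saline mice and 158 ± 5.11 FPKM (SD, n = 3 mice) in PD mice. VE-cadherin (Cdh5), an EC adhesion protein, was at 4.72 ± 0.715 and 8.38 ± 0.365 FPKM (SD, n = 3 mice each), and CD45 (Ptprc), carried by leukocytes, at 624 ± 30.2 and 392 ± 7.73 FPKM (SD, n = 3 mice each). CD45 was therefore above CD31 in both groups, although the stated sort removes CD45+ cells. The summed level of 12 endothelial markers was between 1195 and 1211 CPM (counts scaled to the TMM-adjusted library size) in saline mice and between 1908 and 2018 CPM in PD mice, with 11 of the 12 higher. For 6 leukocyte markers it was between 7309 and 7672 CPM in saline mice and between 5699 and 5761 CPM in PD mice, with 5 lower and 1 higher. All 6 B cell markers were lower (summed level 5827 to 6104 CPM in saline mice, 2767 to 2803 CPM in PD mice), as were 3 of 6 T cell markers (1332 to 1414 and 1112 to 1218 CPM). All 6 macrophage markers were higher (2057 to 2184 and 8391 to 9092 CPM), and so were all 6 mesothelial (13.5 to 17.2 and 147 to 172 CPM), all 6 fibroblast (86.6 to 93.0 and 808 to 836 CPM) and all 6 mural cell markers (261 to 279 and 398 to 441 CPM). Of 10 pancreatic acinar markers, 9 were tested and all 9 were higher (2.42 to 5.63 and 6410 to 7135 CPM), and of 6 adipocyte markers 1 was higher (435 to 564 and 692 to 729 CPM). For the mean log2 level of each list, an exact permutation test (two-sided) gave p = 0.1 for 9 of the 10 lists, which is the lowest value possible with 3 mice a group (0.111 after Benjamini-Hochberg adjustment over the 10 lists), and p = 1 for the adipocyte list. The part of these cell types in the changes given here was not tested. In such bulk libraries, fewer cells of a type and less RNA per cell cannot be told apart.

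**Figure D1:**
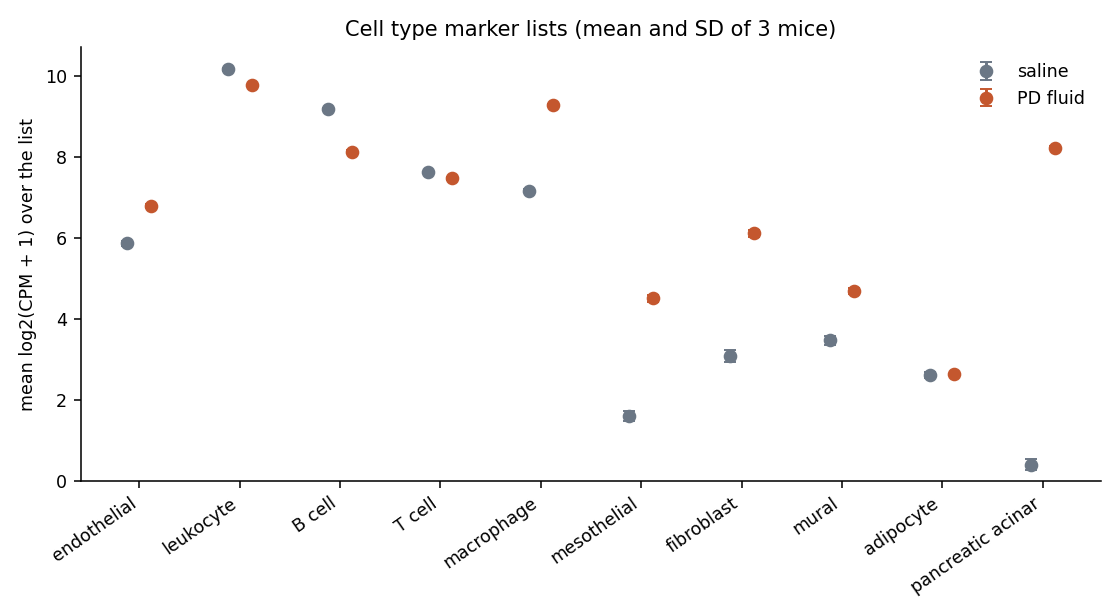
Mean log2(CPM + 1) of each cell type marker list (y axis) in saline and PD mice, with points for the mean and bars for the SD of 3 mice. The acinar list was at 0.397 and 8.23 and the B cell list at 9.17 and 8.12, while the adipocyte list was at 2.62 and 2.64.

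Of the 10 osmotic genes, all passed the filter on low counts, 5 were higher and 1 was lower in PD mice past the threshold of edgeR (adjusted p under 0.05). Sgk1, Slc6a6, Wnk1, Slc12a2 and Slc38a2 were the higher genes, and Akr1b3 was the lower, but of these only Sgk1 stayed higher relative to the endothelial markers. Over all 14005 genes tested, 58.9% passed this test, 31.1% higher and 27.8% lower, so 6 of 10 is close to the background of this comparison. The median log2 fold change was 0.46 for the 10 genes and 0.02 for all tested genes. For 7 of the 10 genes the ranges of both groups were separate, 6 higher and 1 lower, where 65.6% of all tested genes did not overlap (34% higher and 31.6% lower). With at least a 2-fold change also required, 1 of the 10 genes remained, Sgk1, where 17.2% of all tested genes did.

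**Figure D2:**
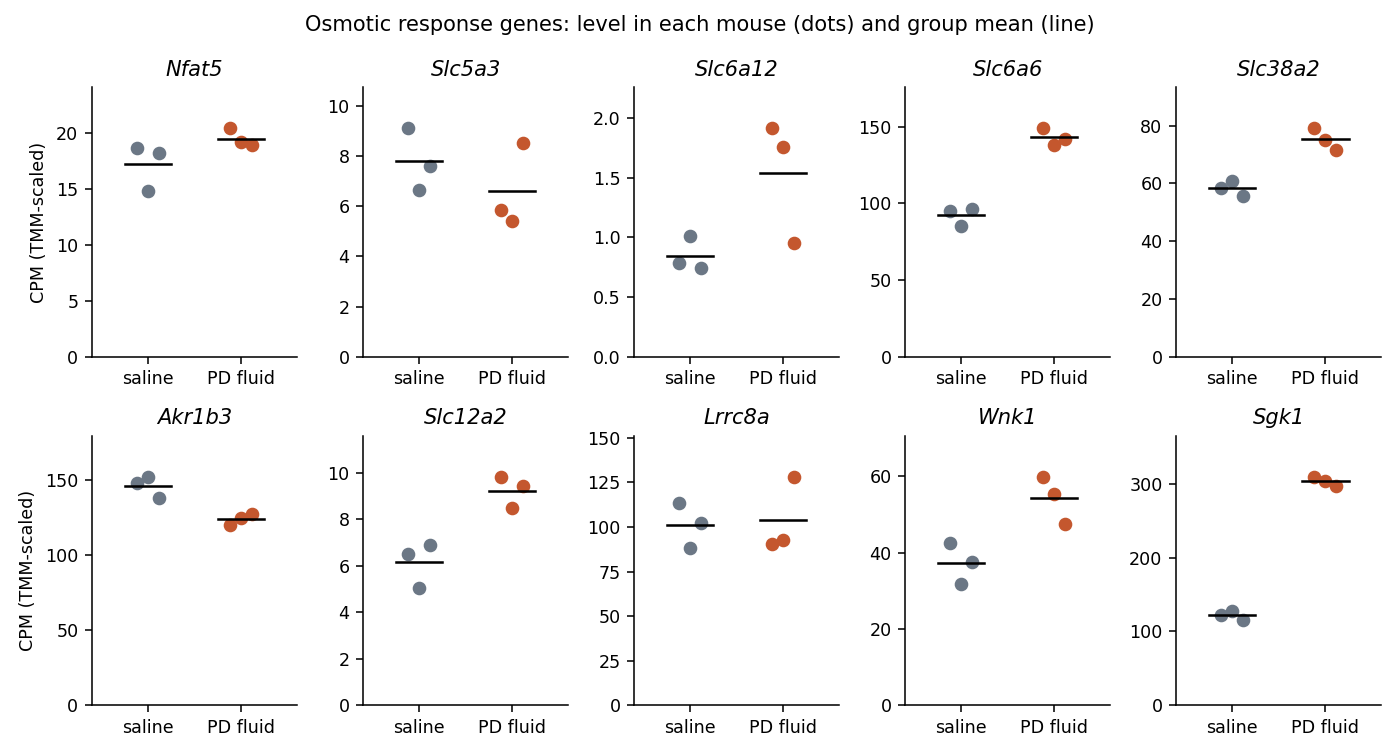
Level of each of the 10 genes (y axis, TMM-scaled CPM from 0) in each saline and PD mouse, with dots for mice and a line for the group mean. Sgk1 rose from a mean of 122 to 303 CPM without overlap, and the dots of Slc5a3, Slc6a12 and Lrrc8a overlap between groups.

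Nfat5 (ENSMUSG00000003847; chromosome 8 of GRCm38, 107293470 to 107379517, plus strand) encodes the transcription factor itself. Its level was 18.7, 14.9 and 18.3 CPM in saline mice 1 to 3 and 20.4, 19.2 and 18.9 CPM in PD mice 1 to 3. Every PD mouse was thus above every saline mouse, by a narrow margin and with saline mouse 2 well below the others. On the log2 scale the fold change came to 0.17 (standard error, SE, 0.12, 95% interval -0.08 to 0.43, edgeR, adjusted p = 0.212), which did not pass the threshold. Without saline mouse 2 it was 0.08. With this scaling, the interval holds no rise above 0.43 and no fall beyond -0.08. Other scalings moved Nfat5 past the threshold in opposite directions. Relative to the endothelial markers it was lower, at -0.74 (edgeR, adjusted p = 1.85e-05). Relative to the leukocyte markers, a scaling chosen after seeing the data, it was higher, at 0.55 (edgeR, adjusted p = 0.00229). NFAT5 activity also depends on protein level and nuclear entry, which these data do not measure. Among all tested genes, the profile over the 6 mice (log2(CPM + 1), centred on each gene's mean) nearest to that of Nfat5 was that of Sema5a, with a root mean square difference of 0.018 log2 units, followed by Wipi2 at 0.022 and Slc35a2 at 0.027.

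The starts of the osmotic genes were searched for the TonE consensus, an 11-base motif that begins with TGGAAA, on both strands. RefSeq promoter windows of 300 bases (GRCm38.p6, 250 before to 50 after the start) were at hand for 7 of the 10 genes, with 16 windows in all, and none for Slc6a6, Akr1b3 and Slc12a2. TGGAAA was in 3 of the 16 windows, from 2 genes, and in 21.4% of all 32851 windows. The full consensus, which includes TGGAAA, was in 1 of the 16 windows and in 4.96% of all windows. The windows of Nfat5, Slc5a3, Slc38a2, Lrrc8a and Wnk1 held neither, which says only that these letters are not in these 300 bases. The windows with a match belong to Slc6a12 and Sgk1 and are printed with those genes.

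Slc6a12 (ENSMUSG00000030109; chromosome 6, 121343076 to 121365775, plus strand) encodes the betaine transporter BGT1, a long-known NFAT5 target in kidney cells. Of its 5 RefSeq starts, the most distal has the match to the TonE consensus. The 250 bases before that start are shown because they hold this match, in capitals, whose first base lies 75 bases before the start.
Slc6a12 distal start, chr6:121342324-121342573, plus strand: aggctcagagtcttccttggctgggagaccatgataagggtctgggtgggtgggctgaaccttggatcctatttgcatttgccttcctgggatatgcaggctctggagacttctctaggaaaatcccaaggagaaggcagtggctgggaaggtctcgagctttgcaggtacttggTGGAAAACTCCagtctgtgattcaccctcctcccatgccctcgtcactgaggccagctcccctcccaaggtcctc
Counts of Slc6a12 were low, at 20, 22 and 18 in saline mice 1 to 3 and 52, 42 and 21 in PD mice 1 to 3, or 0.781, 1.02 and 0.745 CPM and 1.91, 1.76 and 0.952 CPM. PD mice 1 and 2 were above all saline mice, and PD mouse 3 lay within the saline range. The difference of 0.87 log2 units (SE 0.37, 95% interval 0.07 to 1.68, edgeR, adjusted p = 0.0587) missed the threshold. Without PD mouse 3 it was 1.12 (edgeR, adjusted p = 0.0216).

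Slc5a3 (ENSMUSG00000089774; chromosome 16, 92058322 to 92087473, plus strand) encodes the sodium/myo-inositol cotransporter SMIT1, another classical NFAT5 target. Its level was 9.10, 6.64 and 7.62 CPM in saline mice 1 to 3 and 5.85, 5.41 and 8.52 CPM in PD mice 1 to 3. PD mice 1 and 2 were below all saline mice, while PD mouse 3 was between them. The groups differed by -0.25 log2 units (SE 0.20, 95% interval -0.69 to 0.19, edgeR, adjusted p = 0.307). Single mice moved this value, to -0.46 without PD mouse 3 (edgeR, adjusted p = 0.0614), to -0.11 without saline mouse 1 and to -0.12 without PD mouse 2. The gene lies on the same strand within Mrps6, which encodes a mitochondrial ribosomal protein, so the assignment of reads between them is uncertain. Mrps6 itself was higher in PD mice, a log2 change of 0.87 (edgeR, adjusted p = 0.000118).

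Slc6a6 (ENSMUSG00000030096; chromosome 6, 91684053 to 91759066, plus strand) encodes the taurine transporter TauT. Its level was 95.3, 85.2 and 96.4 CPM in saline mice 1 to 3 and 149, 138 and 142 CPM in PD mice 1 to 3. All PD mice were well above all saline mice. The rise was 0.63 log2 units (SE 0.07, edgeR, adjusted p = 2.48e-05), or 1.55-fold.

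Slc38a2 (ENSMUSG00000022462; chromosome 15, 96687392 to 96699730, minus strand) encodes SNAT2, which carries small neutral amino acids such as alanine and proline into the cell and is induced by hypertonicity and by amino acid shortage. It was at 58.4, 60.9 and 55.5 CPM in saline mice 1 to 3 and at 79.0, 75.1 and 71.5 CPM in PD mice 1 to 3, without overlap. This was a rise of 0.37 log2 units (SE 0.07, edgeR, adjusted p = 0.00145).

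Akr1b3 (ENSMUSG00000001642; chromosome 6, 34302434 to 34317478, minus strand) encodes aldose reductase, which turns glucose into the osmolyte sorbitol as the first step of the polyol pathway. It was the osmotic gene that fell. Its level was 148, 152 and 138 CPM in saline mice 1 to 3 and 120, 125 and 127 CPM in PD mice 1 to 3, so every PD mouse was below every saline mouse. The change was -0.24 log2 units (SE 0.06, edgeR, adjusted p = 0.00871), or 0.849 of the saline level. An antisense gene, Gm14546, overlaps the locus, and the library kit named in the labels does not mark strand.

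Among the genes of ion uptake and volume control, Slc12a2 (ENSMUSG00000024597) encodes NKCC1, the sodium-potassium-chloride cotransporter that refills shrunken cells with salt. It was at 6.52, 5.03 and 6.92 CPM in saline mice 1 to 3 and at 9.82, 8.47 and 9.42 CPM in PD mice 1 to 3, without overlap. NKCC1 transcript thus rose by 0.58 log2 units (SE 0.16, edgeR, adjusted p = 0.00907).

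Wnk1 (ENSMUSG00000045962; chromosome 6, 119923969 to 120038672, minus strand) encodes a chloride-sensitive kinase that activates NKCC1 through the kinases SPAK and OSR1. Its level was 42.4, 31.7 and 37.4 CPM in saline mice 1 to 3 and 59.8, 55.4 and 47.5 CPM in PD mice 1 to 3. The groups did not overlap, but saline mouse 1 and PD mouse 3 came close. The mean rise was 0.54 log2 units (SE 0.12, edgeR, adjusted p = 0.00236).

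Lrrc8a (ENSMUSG00000007476; chromosome 2, 30237715 to 30263790, plus strand) encodes the obligatory subunit of the volume-regulated anion channel, through which swollen cells release chloride and osmolytes. It was at 113, 88.1 and 102 CPM in saline mice 1 to 3 and at 90.4, 92.6 and 128 CPM in PD mice 1 to 3. PD mouse 3 had the highest value of all 6 mice, and the other PD mice lay within the saline range. The groups differed by 0.03 log2 units (SE 0.13, 95% interval -0.26 to 0.32, edgeR, adjusted p = 0.848). Without PD mouse 3 it was -0.14 (edgeR, adjusted p = 0.272), and without saline mouse 2 it was -0.06 (edgeR, adjusted p = 0.689). The gene Gm28035 overlaps Lrrc8a on the same strand, and its mean count was 17.3 in saline mice and 34.7 in PD mice.

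Sgk1 (ENSMUSG00000019970; chromosome 10, 21882184 to 21999903, plus strand) encodes a serum- and glucocorticoid-induced kinase whose transcript is raised by cell shrinkage and which promotes sodium entry. It had the largest change of the 10 genes on the log2 scale. Its level was 123, 128 and 115 CPM in saline mice 1 to 3 and 309, 304 and 297 CPM in PD mice 1 to 3, and the spread within each group was small beside the gap between them. It rose by 1.32 log2 units (SE 0.06, edgeR, adjusted p = 2.73e-08), or 2.49-fold. With each mouse left out in turn it stayed between 1.27 and 1.35.

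Of the 6 RefSeq starts of Sgk1, 2 have TGGAAA before them and none has the full TonE consensus. These stretches of 250 bases are shown because Sgk1 rose most, with the match in capitals. At the most distal start it reads TTTCCA, the letters TGGAAA on the other strand, and its first printed base lies 105 bases before the start. At the internal start its first base lies 163 bases before the start.
Sgk1 most distal start, chr10:21881934-21882183, plus strand: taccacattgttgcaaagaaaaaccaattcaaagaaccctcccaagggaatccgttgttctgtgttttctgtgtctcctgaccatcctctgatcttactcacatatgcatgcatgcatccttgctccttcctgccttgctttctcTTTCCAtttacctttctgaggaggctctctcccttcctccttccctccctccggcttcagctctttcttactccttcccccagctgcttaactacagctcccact
Sgk1 internal start, chr10:21993640-21993889, plus strand: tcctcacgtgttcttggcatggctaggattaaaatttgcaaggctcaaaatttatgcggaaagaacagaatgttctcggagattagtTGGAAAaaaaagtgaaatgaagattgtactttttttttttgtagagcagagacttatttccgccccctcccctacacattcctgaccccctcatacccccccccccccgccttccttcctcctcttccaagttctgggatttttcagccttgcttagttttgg

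The scaling of the libraries decided the direction of most of these genes. With TMM scaling the median of all tested genes was at 0.02, whereas scaling to the 12 endothelial markers moved the median log2 fold change of all tested genes to -0.90 and scaling to the 6 leukocyte markers, an alternative chosen after seeing the data, moved it to 0.40. With the endothelial scaling 1 of the 10 genes was higher and 7 were lower in PD mice, where 8.93% of all tested genes were higher and 70.7% lower. With the leukocyte scaling 8 were higher and 0 lower, where 55.2% of all tested genes were higher and 5.55% lower, and the genes not past the threshold were Akr1b3 and Slc5a3. Sgk1 was the only one of the 10 genes that was higher under all 3 scalings, a log2 change of 0.40 (edgeR, adjusted p = 0.0009) relative to the endothelial markers and of 1.69 relative to the leukocyte markers. The 12 endothelial markers did not change alike, with TMM log2 changes from 0.13 for Pecam1 to 1.65 for Tie1. With TMM scaling Sgk1, at 1.32, lay below Tie1 and Vwf (1.48), and Slc6a6, Wnk1, Slc12a2 and Slc38a2 lay above Pecam1. In mean log2(CPM + 1), the macrophage, mesothelial, fibroblast and acinar lists rose by more than Sgk1, at 2.12, 2.9, 3.03 and 7.835. The other lists rose by less or fell. Only the endothelial and leukocyte lists were used for scaling. Slc6a6 turned to -0.28, Wnk1 to -0.37 and Slc38a2 to -0.55 relative to the endothelial markers, each with an adjusted p under 0.05 in that edgeR test, while Slc12a2 turned to -0.33 (edgeR, adjusted p = 0.0777). Akr1b3 was at -1.15 relative to the endothelial markers and at 0.14 (edgeR, adjusted p = 0.0722) relative to the leukocyte markers. A direction given in CPM is therefore a direction relative to the whole library, in which leukocyte RNA was abundant.

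**Figure D3:**
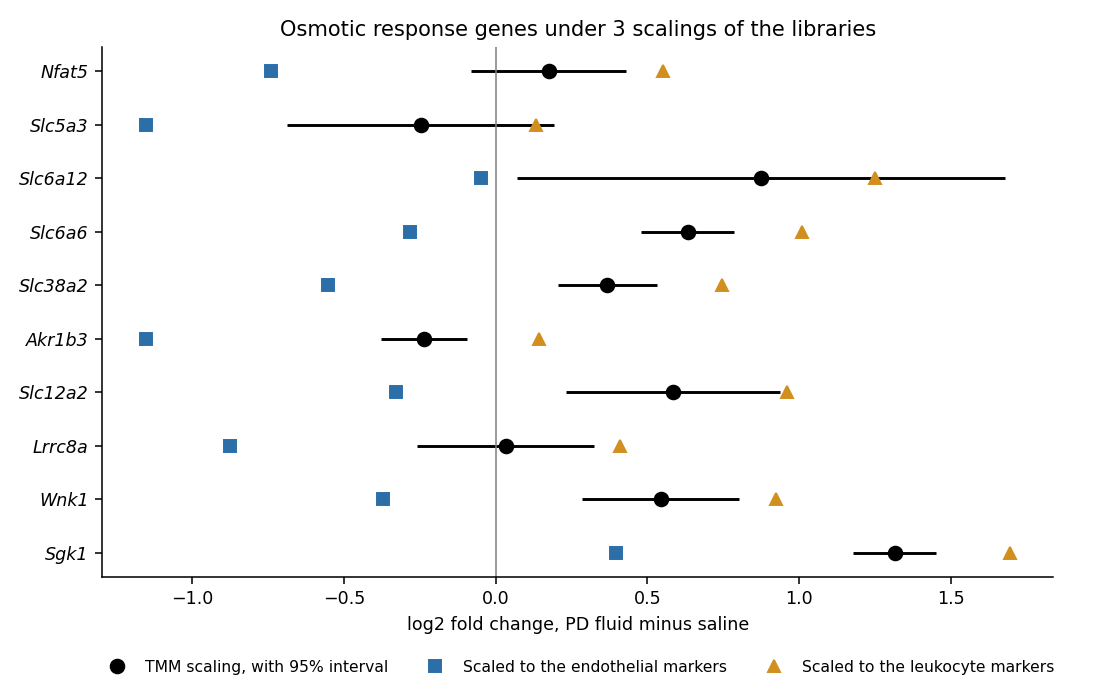
Log2 fold change of each of the 10 genes, PD fluid minus saline (x axis), with black dots and 95% intervals for TMM scaling, blue squares for scaling to the endothelial markers and yellow triangles for scaling to the leukocyte markers. Only Sgk1 lies above 0 in all 3, at 1.32, 0.40 and 1.69, and no gene lies below 0 in all 3.

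Within the groups, the same mice often stood at the edge. Saline mouse 2 had the lowest value of its group for 6 of the 10 genes, namely Nfat5, Slc5a3, Slc6a6, Slc12a2, Lrrc8a and Wnk1, and the highest for the other 4, Slc6a12, Slc38a2, Akr1b3 and Sgk1. Its total count was the lowest of all 6 mice. PD mouse 1, with the highest total count, had the highest value of its group for 7 of the 10 genes. PD mouse 3 had the lowest value of its group for 5 genes and the highest for Slc5a3, Akr1b3 and Lrrc8a, and it had the lowest total count among PD mice. On the second principal component of all tested genes, which held 5.51% of the variance, saline mouse 2 and PD mouse 3 had the lowest scores, at -17.9 and -11.7. PD mouse 1 was at 11.1. The labels give no batch, and the part of depth in these values was not tested.

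Levels of different genes were compared only per length, as deposited FPKM. In saline mice the order was Akr1b3 at 105 ± 4.60 FPKM, Sgk1 at 49.6 ± 2.83, Slc6a6 at 32.4 ± 1.90, Lrrc8a at 23.5 ± 3.08 and Slc38a2 at 12.5 ± 0.475 FPKM (SD, n = 3 mice each). Wnk1 at 4.53 ± 0.255, Nfat5 at 1.95 ± 0.241, Slc12a2 at 0.941 ± 0.160, Slc5a3 at 0.712 ± 0.116 and Slc6a12 at 0.435 ± 0.0444 FPKM (SD, n = 3 mice each) followed. Of these neighbours, Slc12a2 and Slc5a3 overlapped over the saline mice. In PD mice Sgk1 took the first place, at 125 ± 4.66 FPKM above Akr1b3 at 89.7 ± 0.345 FPKM, and Slc6a12 at 0.969 ± 0.495 FPKM (SD, n = 3 mice each) stood above Slc5a3. In PD mice Slc6a12 overlapped with both its neighbours, Slc12a2 above and Slc5a3 below, and the other places were the same as in saline mice. Slc6a6 for taurine and Akr1b3 for sorbitol were thus far above the betaine transporter Slc6a12 and the inositol transporter Slc5a3 in both groups.

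Sgk1, Lrrc8a, Nfat5, Wnk1 and Akr1b3 were then set beside their paralogs, each as its share of the summed FPKM of its family. Sgk1 held 67.1% ± 1.5 of the SGK family in saline mice and 83.5% ± 1.09 in PD mice (SD, n = 3 mice each), without overlap. Sgk3, the only other SGK gene that was tested, was at 80.7 ± 1.012 and 79.5 ± 5.64 CPM (SD, n = 3 each), or -0.02 log2 units (edgeR, adjusted p = 0.820). Lrrc8a held 38.1% ± 2.87 of the LRRC8 family in saline mice and 35.5% ± 4.98 in PD mice (SD, n = 3 mice each), with overlap. Its channel partner Lrrc8c held 44.6% ± 3.29 and 42.8% ± 3.68 (SD, n = 3 mice each), and Lrrc8d, whose channels favour uncharged osmolytes such as taurine, held 15.3% ± 0.554 and 19.0% ± 1.74 (SD, n = 3 mice each) without overlap.

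Nfat5 held 3.11% ± 0.135 in saline mice and 3.79% ± 0.0917 in PD mice of the summed NFAT genes (SD, n = 3 mice each), with Nfatc1 at 74.2% ± 2.81 and 79.2% ± 1.11 (SD, n = 3 mice each) as the most abundant. Wnk1 held 84.8% ± 2.71 and 90.8% ± 3.61 of the WNK genes, and Akr1b3 held 85.2% ± 0.784 and 81.9% ± 3.07 of the AKR1B genes (SD, n = 3 mice each), both with overlap. Since these shares are ratios within a library, the scaling of the libraries does not enter them. They do rest on the authors' FPKM, in which the mean of Nfat5 went from 1.95 to 2.49. Its mean CPM went from 17.3 to 19.5.

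**Figure D4:**
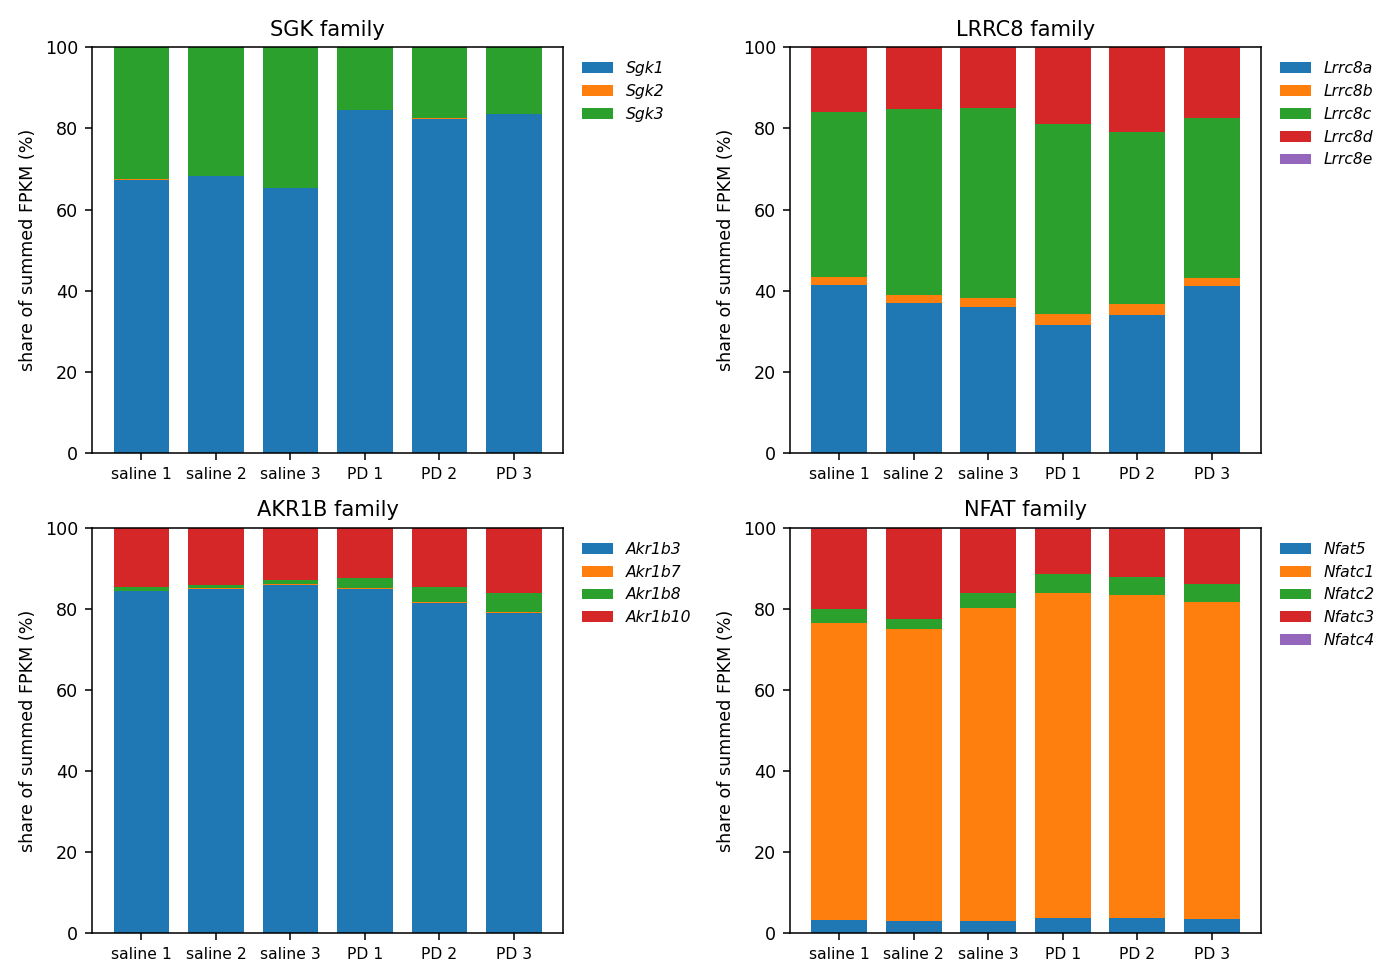
Share of the summed FPKM of the SGK, LRRC8, AKR1B and NFAT families held by each gene (y axis, percent) in each mouse, with stacked bars per mouse. Sgk1 takes between 65.4% and 68.4% in the saline mice and between 82.4% and 84.6% in the PD mice, while Lrrc8a takes 31.5% to 41.3% with no separation of the groups.

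The wider osmotic machinery was read from 12 lists of 93 genes, of which 82 were tested. Of these, 37 were higher and 17 lower in PD mice past the threshold of edgeR (adjusted p under 0.05), with a median log2 fold change of 0.25. The higher genes were 37 of 82 against 31.1% of all tested genes, and the lower genes 17 of 82 against 27.8%. Over all tested genes, 8.93% were higher and 70.7% lower with the endothelial scaling, and 55.2% and 5.55% with the leukocyte scaling. None of the 4 kidney medulla targets of NFAT5 passed the filter on low counts. Slc14a2, Slc12a1 and Umod had 0 counts in all 6 mice, where a count of 0 allows up to 3 counts per library, and Aqp2 had 0 counts in saline mice and between 1 and 4 in PD mice.

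Of the 6 osmotically induced heat shock genes, 4 rose and 1 fell, where 31.1% of all tested genes were higher and 27.8% lower. The same 4 were higher with the endothelial and with the leukocyte scaling, where 8.93% and 55.2% of all tested genes were higher. The other 2, Hspa4 (-1.17) and Hspa1b (-0.79), were lower with the endothelial scaling, where 70.7% of all tested genes were lower. Hsph1, an HSP110 chaperone, rose most, from 87.1 ± 3.89 to 316 ± 9.68 CPM (SD, n = 3 each), or 1.86 log2 units (edgeR, adjusted p = 1.97e-09) and 0.94 relative to the endothelial markers. Hspa4l, an HSP110 relative first found as an osmotic stress protein and named here after its values were seen, rose from 14.8 ± 1.63 to 42.4 ± 3.96 CPM (SD, n = 3 each). The small heat shock gene Hspb1 rose from 65.2 ± 9.68 to 156 ± 10.01 CPM (SD, n = 3 each). Hspa1a rose from 527 ± 11.6 to 1196 ± 10.9 CPM (SD, n = 3 each), but it is nearly identical to Hspa1b, so the split of reads between them is uncertain.

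In the polyol and aldo-keto reductase list, 4 of the 7 tested genes rose and 0 fell with TMM scaling, whereas relative to the endothelial markers 1 was higher and 5 were lower. For this list and the next, the endothelial counts stand beside 8.93% of all tested genes higher and 70.7% lower. Akr1b8, a relative of aldose reductase that acts mainly on lipid aldehydes, rose most, from 1.55 ± 0.126 to 5.65 ± 2.17 CPM (SD, n = 3 each), or 1.86 log2 units (edgeR, adjusted p = 0.00035) and 0.95 relative to the endothelial markers. Sorbitol dehydrogenase (Sord), which turns sorbitol into fructose and is named here after its values were seen, rose from 10.3 ± 0.855 to 23.5 ± 1.28 CPM (SD, n = 3 each), while Akr1b3 fell. Relative to the endothelial markers, Sord was at 0.27 (edgeR, adjusted p = 0.0734). Of the 13 tested genes for inositol, betaine, taurine and glycerophosphocholine supply, 5 rose and 2 fell with TMM scaling, and 1 was higher and 8 were lower relative to the endothelial markers. The largest change was that of Chdh, the mitochondrial choline dehydrogenase that makes the precursor of betaine, from 1.22 ± 0.490 to 3.96 ± 0.588 CPM (SD, n = 3 each), or 1.68 log2 units (edgeR, adjusted p = 0.000689) and 0.77 relative to the endothelial markers.

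Of 9 other amino acid transporters, 4 rose and 2 fell with TMM scaling, and 3 were higher and 6 lower relative to the endothelial markers. With that scaling 8.93% of all tested genes were higher and 70.7% lower. The cystine-glutamate exchanger Slc7a11 rose most, from 1.04 ± 0.391 to 5.29 ± 0.878 CPM (SD, n = 3 each), or 2.32 log2 units (edgeR, adjusted p = 4.5e-05) and 1.41 relative to the endothelial markers. Of the 6 tested cation-chloride cotransporters, 4 rose with TMM scaling and 1 was higher relative to the endothelial markers. The largest change was that of Slc12a5, at 2.44 (edgeR, adjusted p = 0.00214), on 3 to 10 counts in saline mice and 22 to 56 in PD mice, and at 1.53 relative to the endothelial markers. Of 8 other volume and ion regulators, 6 rose and 1 fell with TMM scaling, and 1 was higher and 3 were lower relative to the endothelial markers. The largest change was that of Trpv4, a calcium channel opened by swelling and stretch, from 18.3 ± 3.14 to 50.2 ± 3.23 CPM (SD, n = 3 each). The rise was 1.45 log2 units (edgeR, adjusted p = 2.48e-06) and 0.54 relative to the endothelial markers.

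In the WNK-SPAK-OSR1 branch, 0 of the 8 tested genes rose and 4 fell with TMM scaling. Relative to the endothelial markers 0 were higher and 7 lower, where 70.7% of all tested genes were lower. With the leukocyte scaling 4 rose and 1 fell, where 55.2% of all tested genes were higher and 5.55% lower. Klhl3, the adaptor that marks WNK kinases for degradation, fell most, from 11.02 ± 0.341 to 6.68 ± 1.46 CPM (SD, n = 3 each), or -0.73 log2 units (edgeR, adjusted p = 0.00362) and -0.35 (edgeR, adjusted p = 0.0979) relative to the leukocyte markers. Relative to the endothelial markers Klhl3 was at -1.64 (edgeR, adjusted p = 1.82e-07). The scaffold proteins of SPAK and OSR1 were the most abundant of the list. Cab39 was at 273 ± 7.37 and 246 ± 6.91 CPM and Cab39l at 152 ± 10.8 and 93.8 ± 3.56 CPM (SD, n = 3 each), and both fell, with Cab39 higher instead in the leukocyte scaling, at 0.23. Klhl2 was at 23.0 ± 2.46 and 26.2 ± 2.95 CPM (SD, n = 3 each), and Wnk4, the only tested paralog of Wnk1, at 0.666 ± 0.172 and 0.673 ± 0.250 CPM (SD, n = 3 each). The genes of SPAK (Stk39) and OSR1 (Oxsr1), named here after their values were seen, had log2 fold changes of 0.28 and 0.21 (edgeR, adjusted p = 0.0533 and 0.1). Both were lower relative to the endothelial markers, at -0.64 and -0.71, and higher relative to the leukocyte markers, at 0.65 and 0.59. Each of these passed the threshold of edgeR.

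Of 3 tested LRRC8 paralogs, 2 rose, Lrrc8d from 36.7 ± 3.29 to 49.2 ± 2.30 CPM and Lrrc8b from 8.40 ± 0.929 to 11.4 ± 1.6 CPM (SD, n = 3 each), both lower instead relative to the endothelial markers. Lrrc8c was at 154 ± 6.57 and 155 ± 3.73 CPM (SD, n = 3 each). Relative to the endothelial markers Lrrc8c was lower too, at -0.91 (edgeR, adjusted p = 5.17e-08), as were 70.7% of all tested genes. With the leukocyte scaling it was higher, at 0.38 (edgeR, adjusted p = 0.000827), as were 55.2% of all tested genes. In the SGK list 3 of 6 tested genes rose and 0 fell, and relative to the endothelial markers 0 rose and 5 fell, where 70.7% of all tested genes fell. Nedd4, a ubiquitin ligase of the family that SGK1 restrains, rose most, from 73.3 ± 2.74 to 128 ± 9.45 CPM (SD, n = 3 each), or 0.81 log2 units (edgeR, adjusted p = 5.29e-06) and -0.11 relative to the endothelial markers. The glucocorticoid receptor (Nr3c1), at 165 ± 2.25 and 194 ± 11.4 CPM, and its target Tsc22d3, at 664 ± 13.1 and 848 ± 10.2 CPM (SD, n = 3 each), rose by less, at 0.23 and 0.35 on the log2 scale. Both were lower instead relative to the endothelial markers, at -0.68 and -0.56 (edgeR, adjusted p = 3.66e-06 and 1.87e-05).

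Of the NFAT genes that calcineurin regulates, 1 rose and 1 fell among 4 tested. Nfatc3 fell from 58.7 ± 7.12 to 37.2 ± 2.99 CPM (SD, n = 3 each), or -0.66 log2 units (edgeR, adjusted p = 0.000281), and it was lower under all 3 scalings. Nfatc2 rose from 13.3 ± 4.4 to 19.9 ± 2.94 CPM (SD, n = 3 each), at 0.57 (edgeR, adjusted p = 0.039) and at -0.33 (edgeR, adjusted p = 0.0988) relative to the endothelial markers. Nfatc1 was at 212 ± 32.1 and 235 ± 25.6 CPM and Nfatc4 at 0.327 ± 0.164 and 0.593 ± 0.397 CPM (SD, n = 3 each), both with overlap. Of 12 NFAT5 activators and partners, 4 rose and 5 fell, and relative to the endothelial markers all 12 were lower, where 70.7% of all tested genes were lower. Ccm2, the scaffold that links MEKK3 to the p38 kinase pathway, changed most, from 393 ± 13.4 to 233 ± 24.5 CPM (SD, n = 3 each), or -0.75 log2 units (edgeR, adjusted p = 1.32e-05), and it was lower under all 3 scalings.

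**Figure D5:**
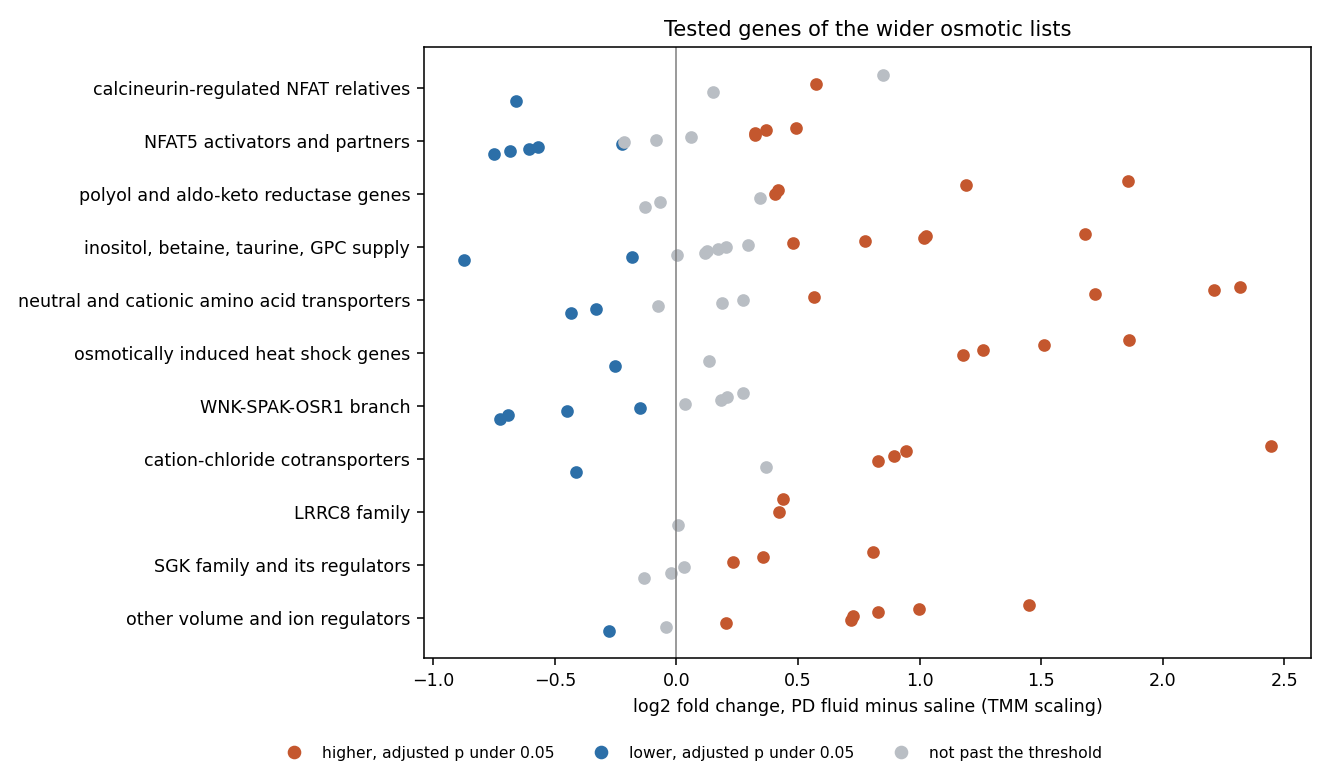
Log2 fold change, PD fluid minus saline with TMM scaling (x axis), of each tested gene in the 11 lists with tested genes, with orange dots for higher, blue for lower and grey for not past an adjusted p of 0.05. The heat shock list has 4 of 6 genes above 1, and the WNK-SPAK-OSR1 list has no orange dot, while relative to the endothelial markers 11 of the 82 genes are higher and 54 lower. With that scaling 8.93% of all tested genes are higher and 70.7% lower.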

How the data were processed

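RNA was sequenced from 6 libraries, 1 per mouse, grouped by treatment as the sample titles give it. The authors deposited a table with the read count of each of 22183 genes in each mouse, without normalization, and their own FPKM values. FPKM was used here for levels between genes, for Pecam1, Cdh5 and Ptprc, and for the family shares, and entered no test. The authors' mean FPKM, log2 ratio, p-value and FDR columns hold their own comparison and were not used. The submitters' processing notes name fastp 0.18.0, Bowtie2 2.2.8, HISAT2, StringTie 1.3.1 and RSEM, and the genome build is not given in the sources used here. Positions are those of GENCODE M21 (GRCm38), to which 22128 identifiers matched.

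Counts were filtered with filterByExpr (14005 genes kept) and given TMM factors, and edgeR 4.0.16 was the test (quasi-likelihood, Benjamini-Hochberg over all tested genes, threshold 0.05, R 4.3.3). Standard errors come from the F statistic. The share of Slc12a2 within its family is not reported here. DESeq2 1.42.0 and limma 3.58.1, the tool the study names, were alternatives. The script was tested on simulated data. No sample column was left unmatched (0). The 10 genes and the lists were chosen with earlier results of these data known. Named genes are the 10, the most changed gene of each list, paralogs, the 3 most abundant genes of 5 lists, and the 3 profiles nearest to Nfat5. Hspa4l, Sord, Stk39 and Oxsr1 fall outside this rule and were named after their values were seen. Alternatives were other scalings, no count filter, the replicate number as a block, a 2-fold threshold, a pseudocount of 0.1 and leaving out each mouse.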

Additional observations from a re-analysis of the deposited data

How the results depend on the processing

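DESeq2 size factors, library size alone, leaving out the acinar and amylase genes, DESeq2, limma-voom, omission of the count filter and the replicate block each gave 5 higher and 1 lower of the 10 osmotic genes, and the 6 calls made with the block were the 6 made without it. The replicate numbers share only a number, since the deviations of same-numbered mice correlated at 0.188, 0.0671 and -0.274. With that block 7909 genes passed instead of 8246, of which 7795 were in both, and not every mouse correlated best with its own number. Leaving out each mouse in turn gave 6996 to 8018 genes, 5 to 6 higher and 1 lower osmotic genes, and 32 to 37 higher and 14 to 15 lower genes of the wider lists. The sixth higher gene was Slc6a12 without PD mouse 3, and Lrrc8a reversed without saline mouse 2 (-0.06) or PD mouse 3 (-0.14).

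With endothelial marker scaling 1 osmotic gene was higher and 7 lower, and 11 genes of the wider lists were higher and 54 lower. Over all genes, 1251 were then higher and 9897 lower, against 4359 and 3887 with TMM. The log2 fold changes that reversed were those of Nfat5 (-0.74), Slc6a6 (-0.28), Slc6a12 (-0.048), Slc38a2 (-0.55), Slc12a2 (-0.33), Lrrc8a (-0.87) and Wnk1 (-0.37). With leukocyte marker scaling, chosen after seeing the data, 8 osmotic genes were higher and 0 lower, 56 and 7 genes of the wider lists, and 7727 and 777 genes in all, and Slc5a3 (0.13) and Akr1b3 (0.14) reversed. In both cases the median of all genes moved with the scaling, by construction. At least 2-fold left 2410 genes, 1 higher and 0 lower osmotic genes, and 14 and 0 of the wider lists. With log2(CPM + 0.1), list differences were 3.47 for mesothelial, 3.24 for fibroblast, 1.45 for mural, 9.69 for acinar and -0.11 for adipocyte markers, the last reversed. Low counts limit Slc6a12, which had 18 to 52 counts per mouse.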
